A study of Mus musculus with 2 samples.

Results

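Enterocytes, the absorptive cells of the villus, were examined here as the cell barcodes of 2 single-cell libraries that kept an enterocyte profile together with 5% to under 25% mitochondrially encoded RNA. The class was chosen on the measured counts. A barcode had at least 500 detected genes, at least 1 unique molecular identifier (UMI, a tag that marks 1 captured RNA molecule) of Epcam or Vil1, and at least 1% of its UMIs from Fabp1, Fabp2, Apoa1 and Apoa4 together. It had no UMI of the leukocyte gene Ptprc, fewer than 2 of the crypt stem cell gene Olfm4, and under 0.5% of its UMIs from the goblet genes Muc2, Fcgbp, Clca1 and Zg16. In all, 324 barcodes met the rule, 171 in control 1 and 153 in control 2, out of 4549 barcodes that passed the same gate at any mitochondrial share and 16451 barcodes in the series. They are called the 5% to 25% class here, and were set against 2304 and 1369 barcodes of the same gate with under 1% mitochondrial UMIs, called the under 1% class.

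Both libraries came from the proximal small intestine of control mice labelled C57BL/6, one titled as a control for the M1 and the other as a control for the M3 muscarinic receptor model of the series. The labels give no age, sex or treatment. A villus fraction released in 20 mM EDTA over 60 min and a crypt fraction released with TrypLE, a trypsin-like enzyme, over 10 min were pooled and passed to 10x Genomics Chromium 3' libraries. Every comparison below is between classes of barcodes within these libraries, since the series has 1 group. Nothing in the labels says that the libraries came from separate animals. The p-values thus rest only on how the class difference varied between these 2 libraries, which may be technical. That spread was estimated with information shared over all genes, so a gene can pass although its libraries differ widely.

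Enterocytes take up sugars, amino acids, fats and minerals through a brush border of microvilli, pack dietary fat into chylomicrons, and are shed at the villus tip after migrating up from the crypt. They are rich in mitochondria. The mitochondrial genome encodes a small set of respiratory chain subunits whose transcripts stay inside the organelle, while all other mitochondrial proteins come from nuclear genes and cytosolic translation. The share of mitochondrial UMIs in a barcode is widely used as a quality filter in single-cell work.

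The label of enterocytes with an ordinary mitochondrial share described a minority of the gated barcodes. The 5% to 25% class made up 6.01% (exact 95% binomial interval 5.17% to 6.95%) of gated barcodes in control 1 and 8.97% (7.65% to 10.43%) in control 2, whereas the under 1% class made up 81.0% and 80.2%. Because its barcodes were deep, the 5% to 25% class held 37.1% and 34.4% of all gated UMIs. Its median barcode had 33194 UMIs in control 1 and 14792 in control 2, against 2599 and 2629 in the under 1% class. The median number of genes was 4772 and 2989, against 1050 and 1055. Once each barcode was thinned to 1000 non-mitochondrial UMIs, which left out 5 and 5 barcodes of the 5% to 25% class and 71 and 32 of the under 1% class, the medians came to 608.5 and 563 genes, against 541 and 541. The mitochondrial share itself, on which the classes were cut, had a median of 11.1% and 12.4%, against 0.138% and 0.132%. These medians correspond to 3640 and 2346 mitochondrial UMIs per barcode, against 4 and 4.

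**Figure D1:**
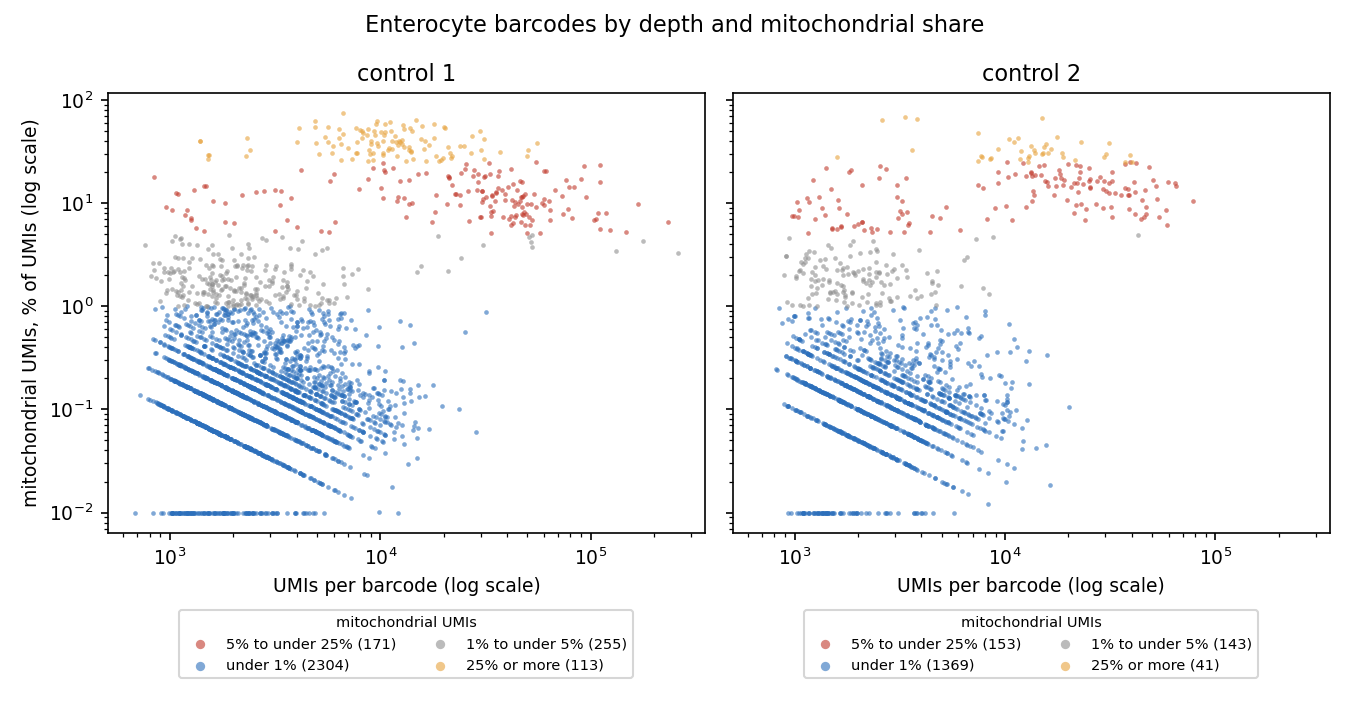
UMIs per barcode (x, log scale) against the mitochondrial share in percent (y, log scale; barcodes with no mitochondrial UMI are drawn at 0.01) for every gated enterocyte barcode of control 1 and control 2. Points are barcodes, coloured by mitochondrial band with the number of barcodes in brackets, and most barcodes at 5% to 25% sit to the right of those under 1%, with a smaller shallow set on the left.

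Depth within the 5% to 25% class was uneven. There were 38 barcodes over 50000 UMIs in control 1, which held 50.75% of that class's UMIs, and 10 in control 2, which held 20.53%. At the other end, 29 barcodes (17.0%) in control 1 and 52 (34.0%) in control 2 had under 5000 UMIs. The class is a range cut from a continuous share, not a cell type of its own. Between 5% and 6% mitochondrial UMIs lay 12 and 15 barcodes with median depths of 19638.5 and 2136 UMIs, and between 4% and 5% lay 16 and 6 with 2804 and 4803.5. Between 24% and 25% lay 3 and 6 barcodes, and between 25% and 26% lay 4 and 4. For the absorptive genes, 7 and 13 barcodes of the class lay between 1% and 1.5%. Between 0.5% and 1% lay 11 and 17 barcodes that met all other conditions of the rule. Of all barcodes with at least 500 genes and 5% to 25% mitochondrial UMIs (763 and 990), the class was 22.4% and 15.5%. The libraries shared 17 barcode sequences among all barcodes, 0.182% of control 1 and 0.239% of control 2.

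The genes that chose the barcodes are described with no test, in CPM, which are a gene's UMIs divided by the non-mitochondrial UMIs of the summed class and multiplied by 1000000. Fabp1, the liver-type fatty acid binding protein, stood at 17210 and 11360 CPM in the 5% to 25% class of control 1 and control 2, against 33900 and 32750 CPM in the under 1% class. Its intestinal relative Fabp2 stood at 13260 and 7281 CPM, against 30740 and 22860. The apolipoprotein genes lay the other way. Apoa1 stood at 15390 and 17700 CPM against 6482 and 8309, and Apoa4 at 9600 and 15900 CPM against 2630 and 3510. Vil1, the microvillus actin bundler, was close in both classes (902.9 and 1066 CPM, against 933.6 and 1170), and Epcam, the epithelial adhesion molecule, was at 1917 and 2623 CPM against 628.3 and 659.4.

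The make-up of the mitochondrial RNA was similar at both ends of the range, also with no test. Of the mitochondrial UMIs, mt-Co3 made up 20.7% and 17.6% in the 5% to 25% class, against 24.6% and 20.1% in the under 1% class. The share of mt-Atp6 was 20.0% and 17.3%, against 22.5% and 20.4%, and that of mt-Co2 was 15.96% and 15.91%, against 14.5% and 15.2%. The cytochrome oxidase subunit mt-Co1 differed more between the libraries than between the classes, at 9.95% and 20.2%, against 7.84% and 17.6%.

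To ask which other genes went with the mitochondrial share, UMIs were summed per library and class, and the sums of the 5% to 25% class were compared with those of the under 1% class of the same library. Of 10276 genes tested, 3247 (31.6%) were higher and 2697 (26.2%) lower at an adjusted p under 0.05, so 57.8% of all genes passed, and the median log2 fold change over all genes was 0.01. Gene groups are read below against those shares. Without trimmed-mean scaling the called genes split into 3621 higher and 1305 lower (73.5% higher, against 54.6% with it), and log2 fold changes shifted up by a median of 0.27. Counts of lower genes depend on this scaling. Both counts are given below only for the respiratory chain, glycolysis and ribosomal protein groups, and a single count for another group does not show that it held. Of the genes named below as lower, Rbp2, Gsta1, Cox8a, Slirp, Esrra, Hspa8, Gapdh and Fth1 kept their direction but lost their call without it (edgeR adjusted p from 0.057 for Slirp to 0.31 for Esrra).

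Nuclear-retained RNA had the largest median difference of the 39 gene lists. This list had 5 genes, of which 3 were tested and 2 were higher, so its median of 4.34 is the Malat1 value. Its summed levels below, 5199 and 18810 CPM in the 5% to 25% class, are mostly Malat1. Malat1, a long non-coding RNA held in nuclear speckles, was at 4737 and 17610 CPM in the 5% to 25% class of control 1 and control 2, against 315.5 and 444.6 CPM in the under 1% class. Neat1, the scaffold RNA of nuclear paraspeckles, was at 432.7 and 1163 CPM, against 16.01 and 37.55. Both genes rose in each library. The log2 fold change was 4.34 ± 0.38 for Malat1 (SE of the fit, edgeR adjusted p = 3.3e-28) and 4.59 ± 0.32 for Neat1 (edgeR adjusted p = 1.8e-44). Tug1, a long RNA found in nucleus and cytoplasm, was at 28.78 and 39.87 CPM against 17.66 and 28.22, and did not pass (0.33 ± 0.25). After thinning to 1000 non-mitochondrial UMIs, a Malat1 UMI was present in 82.5% and 81.1% of barcodes of the 5% to 25% class, against 23.9% and 36.9% of the under 1% class. The unthinned shares were 92.4% and 84.97%, against 49.4% and 66.3%. For the T cell gene Cd3e, which enterocytes lack, the thinned shares were 0.602% and 2.03%, against 1.39% and 2.32%. Cd3e was picked with its values known, and the Ptprc condition of the rule bears on it, so it is no control for Malat1.

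Neat1 was 1 of the 10 genes with the largest rise among those averaging at least 100 CPM in either class. Pde4d, a cyclic AMP phosphodiesterase, was at 352.1 and 964.5 CPM in the 5% to 25% class, against 9.021 and 12.22 in the under 1% class, a log2 fold change of 5.51 ± 0.33. Egfr, the epidermal growth factor receptor, was at 58.81 and 389.8 CPM, against 2.16 and 5.776 (5.26 ± 0.34). Both genes were higher in each library, and for Egfr the level in control 2 was several times that in control 1. The Egfr log2 ratios were 3.95 in control 1 and 5.68 in control 2, further apart than the SE of the fit, 0.34, would show. Nt5e, the ectoenzyme CD73 that makes adenosine, was at 149.2 and 965.7 CPM, against 8.513 and 18 (4.70 ± 0.32). Gpr39, a zinc-sensing receptor, was at 128.6 and 354.8 CPM, against 7.369 and 4.888 (4.76 ± 0.32). The others were the receptor kinase Grk5 (5.33), the semaphorin receptor Plxna2 (4.86), the receptor phosphatases Ptprd (4.86) and Ptprg (4.54), and Malrd1 (4.68), a gene linked to bile acid control in mice. The largest edgeR adjusted p among these 10 genes was that of Ptprg, 1.1e-43.

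All 18 tested genes of peptide and amino acid digestion and uptake were higher, with a median log2 fold change of 1.75. The proton-coupled peptide transporter Slc15a1 was at 278.3 and 307.3 CPM in the 5% to 25% class, against 40.15 and 38.21 in the under 1% class (2.62 ± 0.27, edgeR adjusted p = 5.3e-20), and the imino acid transporter Slc6a20a at 540.9 and 263.0 CPM, against 61.24 and 39.99 (2.66 ± 0.28). Each library had higher levels of both transporters in the 5% to 25% class. Smaller rises were seen for the meprin subunit Mep1b (1.43 ± 0.28) and aminopeptidase N, Anpep (1.08 ± 0.28).

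In the sugar group 8 of 12 genes were higher and 3 lower (median 1.57). Its summed level was 13640 and 9467 CPM in the 5% to 25% class, against 8465 and 8782 CPM in the under 1% class, so it was close in control 2. Lactase, Lct, was at 728.3 and 748.6 CPM in the 5% to 25% class, against 68.1 and 80.43 in the under 1% class (3.05 ± 0.29, edgeR adjusted p = 7.3e-24). The maltase Mgam was at 2152 and 1603 CPM, against 188.5 and 309.7 (2.67 ± 0.31), and the sodium-glucose transporter Slc5a1 at 1786 and 1490 CPM, against 314.2 and 417.7 (1.90 ± 0.30). The apical transporter and both disaccharidases were thus several-fold higher in each library. Sucrase-isomaltase, Sis, rose less (1.504 ± 0.30).

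Of 22 tested genes of lipid uptake and chylomicron assembly, 16 were higher and 2 lower (median 1.16). The summed level of the 22 genes was nonetheless lower in both libraries, at 30460 and 26380 CPM in the 5% to 25% class, against 34390 and 32180 CPM in the under 1% class. Apob, the structural protein of chylomicrons, was at 2093 and 4499 CPM in the 5% to 25% class, against 218.3 and 430.1 in the under 1% class (3.05 ± 0.32, edgeR adjusted p = 1.2e-19). Mttp, which loads lipid onto it, was at 1251 and 1196 CPM, against 146.0 and 192.0 (2.60 ± 0.30). Rbp2, the cellular retinol binding protein, was the opposite case at 13840 and 8637 CPM, against 26240 and 24100 (-1.47 ± 0.36, edgeR adjusted p = 0.00019). Apoc3, a small secreted apolipoprotein, did not pass, at 2633 and 2996 CPM against 1875 and 1813. Among 12 enterocyte markers that the rule did not use, 11 were higher and 1, Rbp2, was lower, with a median of 1.86.

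**Figure D2:**
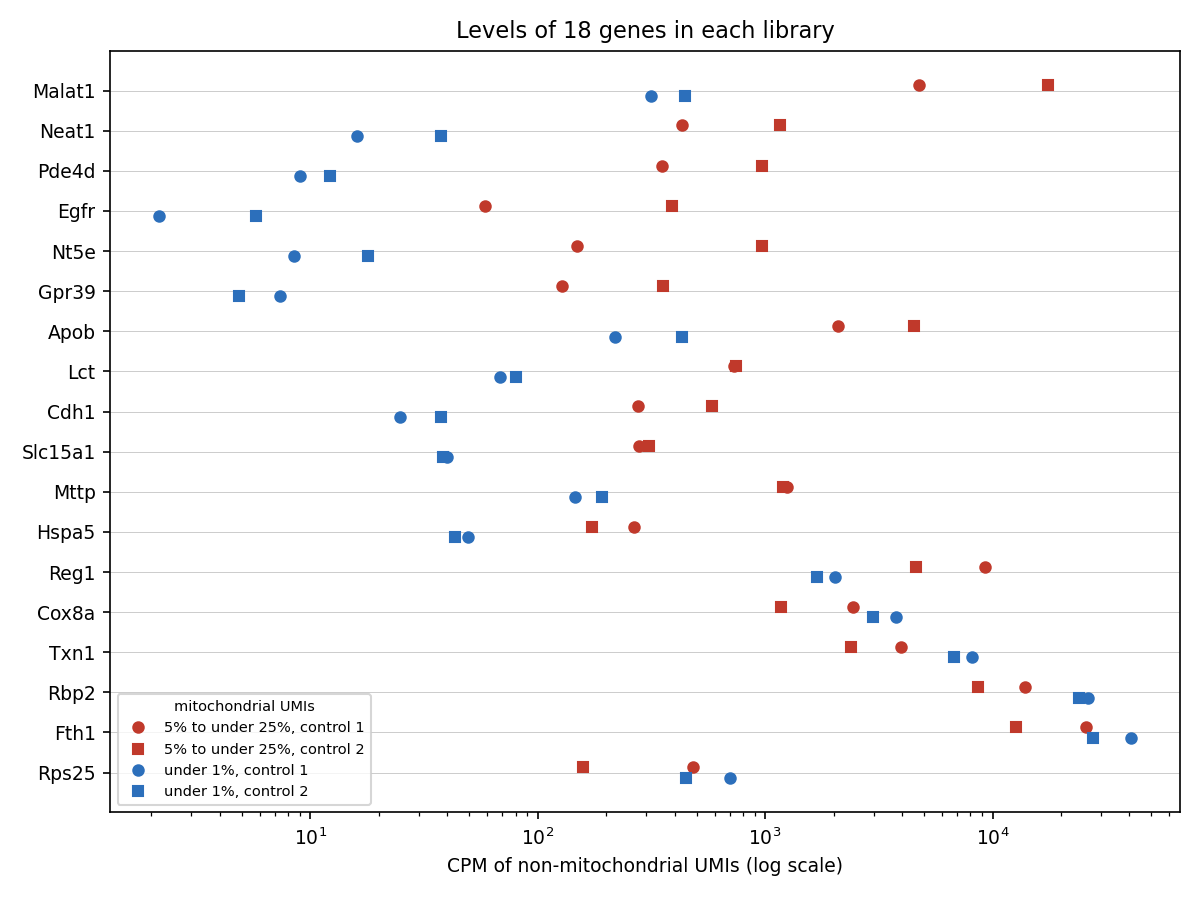
Levels of 18 named genes in CPM of non-mitochondrial UMIs (x, log scale) for the 5% to 25% class (red) and the under 1% class (blue), with circles for control 1 and squares for control 2. The top 13 genes, from Malat1 to Reg1, have both red points to the right of both blue points, and for Txn1 and Rbp2, for example, both red points lie to the left.

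Xenobiotic metabolism had 19 higher and 5 lower genes of 24 (median 1.27), so all of its genes were called. The cytochrome P450 genes Cyp3a11 and Cyp3a13 rose by 1.44 ± 0.29 and 1.88 ± 0.29 on the log2 scale. Abcc2, the apical conjugate exporter, was at 739.2 and 281.1 CPM in the 5% to 25% class, against 64.54 and 37.77 in the under 1% class (2.94 ± 0.28), and Por, the reductase that feeds electrons to P450 enzymes, rose by 2.93 ± 0.28. These are proteins of the endoplasmic reticulum or the apical membrane. Both cytosolic conjugating enzymes named here fell, but genes were not grouped or tested by where their proteins lie. The glutathione transferase Gsta1 was at 2547 and 939.1 CPM, against 3646 and 1556 (-0.89 ± 0.31), and the sulfotransferase Sult1b1 had a log2 fold change of -1.26 ± 0.30.

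Cell junction and adhesion genes were higher in 14 of 15 cases (median 1.57). E-cadherin, Cdh1, was at 277.3 and 587.1 CPM in the 5% to 25% class, against 24.78 and 37.55 in the under 1% class (3.45 ± 0.29, edgeR adjusted p = 1.5e-30). The tight junction protein occludin, Ocln, rose by 2.88 ± 0.28, the intestinal cadherin Cdh17 by 2.09 ± 0.28 and Cldn7 by 0.95 ± 0.29. Structural genes of the brush border were mixed, with 7 of 14 higher and 2 lower (median 0.51). The microvillus protocadherin Cdhr2 was at 748.8 and 1032 CPM, against 99.48 and 139.5 (2.63 ± 0.29), and its motor partner Myo7b rose by 2.06 ± 0.27. The actin bundler Pls1 was at 1229 and 1714 CPM, against 1165 and 1723, and ezrin, Ezr, at 574.8 and 718.4 CPM, against 420.0 and 497.9, and neither passed. None of the 4 tested simple epithelial keratins passed. For example, Krt8 was at 1786 and 1923 CPM, against 1210 and 1486 (0.20 ± 0.30).

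Mineral absorption had 7 higher and 2 lower genes of 11 (median 1.86). Heph, the copper oxidase of basolateral iron export, was at 237.0 and 289.9 CPM in the 5% to 25% class, against 18.55 and 30.66 in the under 1% class (3.19 ± 0.28, edgeR adjusted p = 1.3e-27). Atp2b1, the calcium pump of the basolateral membrane, rose by 2.998 ± 0.29. The ferritin subunits, which store iron in the cytosol, were the lower pair. Fth1 was at 25730 and 12730 CPM, against 40690 and 27710 (-1.16 ± 0.37), and Ftl1 fell by 1.46 on the log2 scale. S100g, the calcium-binding calbindin, went opposite ways in the libraries and did not pass. It was at 6612 CPM in the 5% to 25% class of control 1, against 2272 in the under 1% class, and at 1609 CPM in control 2, against 2635.

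Genes of the endoplasmic reticulum folding machinery were higher in 13 of 17 cases with none lower (median 1.38). The chaperone Hspa5 was at 265.4 and 173.6 CPM in the 5% to 25% class, against 49.3 and 43.32 in the under 1% class (1.95 ± 0.27, edgeR adjusted p = 4.2e-12). Hsp90b1, its partner for folding membrane proteins, rose by 1.98 ± 0.27 and P4hb, a disulfide isomerase, by 1.40 ± 0.28. The stress sensors Ern1 and Atf6 rose too, by 2.79 ± 0.33 and 2.23 ± 0.27. Immediate early and heat shock genes had 9 of 18 higher and 3 lower (median 0.34). Fosb was at 25.43 and 25.37 CPM, against 1.143 and 0.8887 (4.29 ± 0.41), and its relative Fos at 216.5 and 235.6 CPM, against 68.48 and 62.87 (1.51 ± 0.26). The abundant chaperone Hspa8 was lower (-0.89 ± 0.28). For apoptosis genes the list was divided, with 4 of 18 higher and 5 lower (median -0.38), among them the inhibitor Xiap (1.53 ± 0.26) and the apoptosome scaffold Apaf1 (1.79 ± 0.27), which were higher, and the caspase Casp6 (-1.23 ± 0.27), which was lower.

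**Figure D3:**
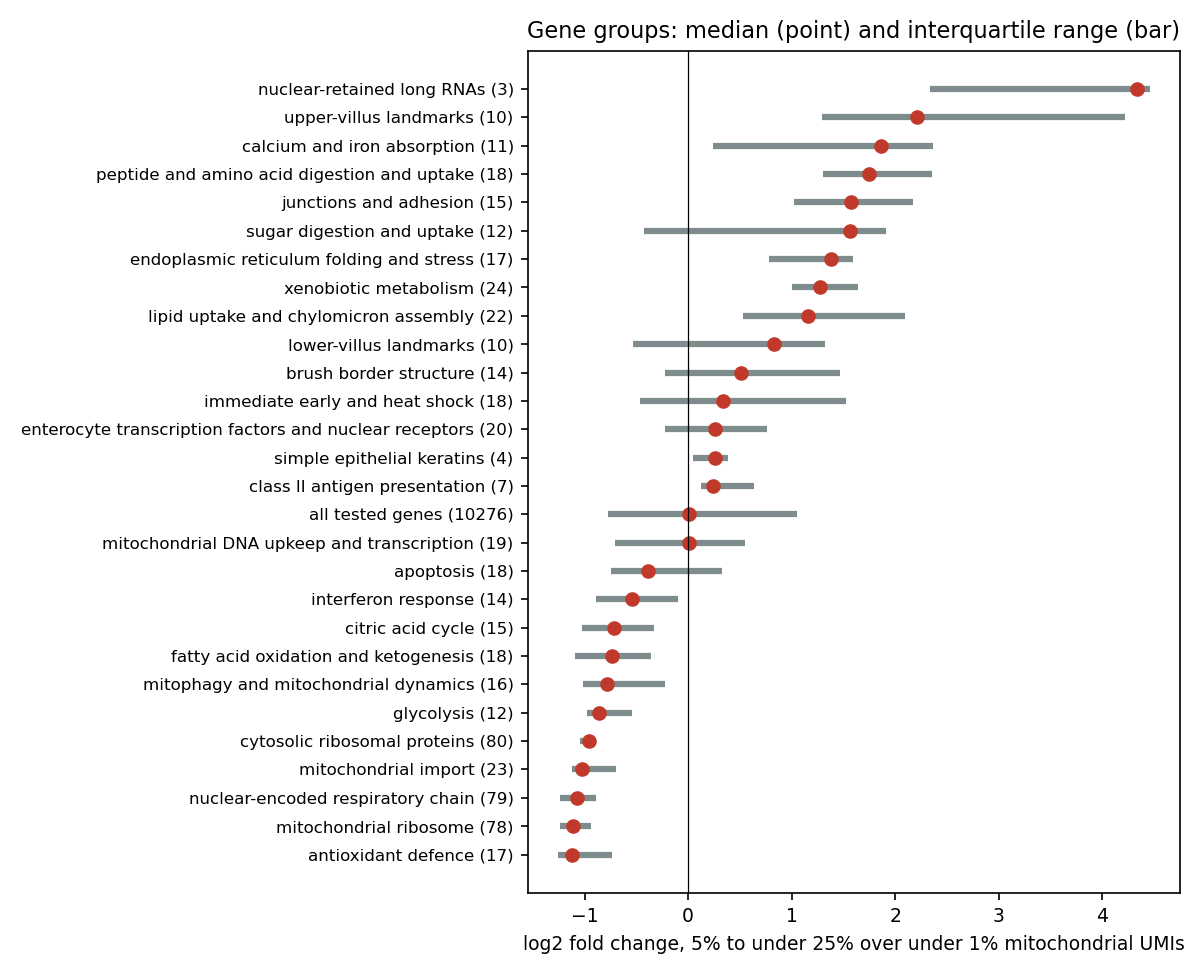
Log2 fold change of the 5% to 25% class over the under 1% class (x) for 27 gene groups and for all tested genes (rows, number of tested genes in brackets). Points are medians and bars run from the lower to the upper quartile over genes, and the groups range from nuclear-retained RNAs with a median of 4.34 to antioxidant defence with -1.12.

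Nuclear genes of the respiratory chain, mitochondrial ribosome and import were mostly lower as shares of non-mitochondrial RNA. The mitochondrially encoded RNA was higher by the rule that cut the classes, so it is no result to set them against. Of 79 tested nuclear genes of the respiratory chain, none was higher and 71 were lower, with a median of -1.08. Cox8a, a cytochrome oxidase subunit, was at 2446 and 1180 CPM in the 5% to 25% class, against 3772 and 2990 in the under 1% class (-1.25 ± 0.31, edgeR adjusted p = 0.00023), and the ATP synthase subunit Atp5md had a log2 fold change of -1.43 ± 0.31. Cox4i1, another oxidase subunit, was at 2651 and 1559 CPM, against 2362 and 2052, and did not pass. Mitochondrial ribosome genes were lower in 72 of 78 cases and higher in 1 (median -1.11; Mrpl12 -1.19 ± 0.27), and import genes lower in 17 of 23 and higher in none (median -1.02; Timm8b -1.39 ± 0.27). These are fractions of the non-mitochondrial UMIs of a class. Counted per barcode, the nuclear respiratory chain genes gave a mean of 2261 and 648 UMIs in the 5% to 25% class, against 326 and 278 in the under 1% class. All non-mitochondrial genes together gave 33120 and 16230 UMIs per barcode, against 3416 and 3288. The counts also depended on the fit, since 26 respiratory chain genes were lower without trimmed-mean scaling and none without library as a block, where 0.05 was passed by 508 lower genes in all.

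Upkeep and transcription of mitochondrial DNA was a list without a common direction, with 3 of 19 genes higher and 6 lower (median 0.01). Ppargc1a, the coactivator that drives mitochondrial gene programmes, was at 202.0 and 144.2 CPM in the 5% to 25% class, against 34.69 and 58.65 in the under 1% class (1.66 ± 0.27, edgeR adjusted p = 6.7e-09). The transcription factor Nrf1 was at 28.96 and 59.2 CPM, against 8.513 and 9.775 (1.89 ± 0.27). Esrra, the nuclear receptor that acts with the coactivator, was lower (-0.65 ± 0.26), though not past the threshold without barcodes over 50000 UMIs (edgeR adjusted p = 0.054) or with at least 5000 UMIs (0.096), as was Slirp, which binds mitochondrial transcripts (-0.93 ± 0.26). Mitophagy and dynamics genes were lower in 11 of 16 cases and higher in none (median -0.78), among them the receptor Bnip3 (-1.65 ± 0.33; edgeR adjusted p = 0.20 with thinned barcodes) and the autophagosome gene Map1lc3b (-1.30 ± 0.26).

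Other metabolic groups were also lower as shares of non-mitochondrial RNA. Fatty acid oxidation and ketogenesis had 10 of 18 genes lower and 1 higher (median -0.73), with the dehydrogenase Hadh at 763.1 and 643.5 CPM in the 5% to 25% class, against 1551 and 1680 in the under 1% class (-1.47 ± 0.30). Glycolysis had 9 of 12 lower and 1 higher (median -0.86; Gapdh -1.03 ± 0.31), but 2 lower without trimmed-mean scaling. In the citric acid cycle 8 of 15 genes were lower and none higher (median -0.72), while citrate synthase, Cs, was at 420.1 and 484.5 CPM, against 312.4 and 469.9, and did not pass. Antioxidant genes were lower in 15 of 17 cases and higher in none (median -1.12). Thioredoxin, Txn1, was at 3968 and 2386 CPM, against 8124 and 6747 (-1.54 ± 0.33, edgeR adjusted p = 1.9e-05), and Prdx1, a peroxiredoxin, at 1858 and 1064 CPM, against 3622 and 3180 (-1.54 ± 0.31).

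All 80 tested cytosolic ribosomal protein genes were lower, with a median of -0.96. Together they held 61250 and 21270 CPM in the 5% to 25% class, against 74000 and 45680 in the under 1% class, so the difference was larger in control 2. Rps25 was at 482.5 and 157.9 CPM, against 704.3 and 447.9 (-1.29 ± 0.28). This group was the most dependent on the fit. It had 43 lower genes when only barcodes under 15% mitochondrial UMIs were kept, 11 without trimmed-mean scaling and 0 without library as a block. Per barcode, ribosomal protein genes gave a mean of 2028 and 345 UMIs in the 5% to 25% class, against 253 and 150. Many ribosomal protein genes have processed pseudogenes of near-identical sequence, and a rule for reads shared with them is not given in the sources used here.

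Other genes with the largest falls, among those at 100 CPM or more, were of unlike kinds. The haemoglobin genes Hbb-bs (1172 and 2001 CPM, against 6435 and 4257), Hba-a1 (-2.05 ± 0.32) and Hba-a2 (-2.03 ± 0.31) come from red cells, and with thinned barcodes Hba-a1 and Hba-a2 did not pass (-0.34 and -0.33 on the log2 scale). Iglc1, an immunoglobulin light chain gene of plasma cells, had the largest fall (-5.60 ± 0.48), which rested on control 2 (6.041 CPM, against 333.5), since control 1 had 0.3532 CPM against 0.6353. With DESeq2 it did not pass (adjusted p = 0.060). Its fall was -0.30 with an edgeR adjusted p of 0.72 once barcodes with T cell gene UMIs were left out of both classes. The remaining genes were the centromere protein Cenpb (70.64 and 45.51 CPM, against 159.5 and 141.1; -1.67 ± 0.27), the cap methylation cofactor Ramac (-1.65 ± 0.27), the histone variant gene H3f3a (-1.62 ± 0.30), the vesicle fusion gene Bet1 (-1.62 ± 0.27), the mitochondrial outer membrane channel Vdac1 (-1.59 ± 0.27) and the glutathione transferase Gstm1 (-1.59 ± 0.28).

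Direction went with the length of the gene on the genome. The span of each gene was taken from the GENCODE M21 annotation of GRCm38, for 10269 of the 10276 tested genes. Among 1205 genes under 5 kb, 9.38% were higher and 53.5% lower, with a median log2 fold change of -0.86. Medians were -0.46 for 5 to 20 kb, 0.11 for 20 to 50 kb and 0.75 for 50 to 100 kb. Among 1293 genes of 100 kb or more, 69.1% were higher and 5.26% lower, with a median of 1.41. The order of the 5 length bins was the same in each library, from -0.65 to 1.20 in control 1 and from -0.93 to 1.35 in control 2, and also without trimmed-mean scaling and with only barcodes of at least 5000 UMIs. The gene groups above differ in this respect, with a median span of 3.33 kb for ribosomal protein genes, 7.21 kb for the nuclear respiratory chain and 38.8 kb for peptide and amino acid uptake, against 24.1 kb over all tested genes. Pde4d (chromosome 13, 108449948 to 109953461, plus strand, GRCm38) spans 1504 kb. Genes are not independent replicates, and no test was made across them. How far gene length or the counting of intron reads bears on any gene group was not tested.

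Position along the villus was described with landmark genes, since enterocytes change their programme as they migrate. Of 10 upper-villus landmarks, 8 were higher and none lower (median 2.21), and of 10 lower-villus landmarks, 6 were higher and 3 lower (median 0.83). The 2 lists also differ in median gene span, 32.6 kb for the upper and 8.88 kb for the lower landmarks. How far span bears on this contrast or on the landmark shares below was not tested. Enpp3, an ectonucleotidase of the upper villus, was at 747.5 and 2285 CPM in the 5% to 25% class, against 75.85 and 110.2 in the under 1% class (3.56 ± 0.32, edgeR adjusted p = 2.0e-27). The purine enzyme Ada was at 1204 and 5038 CPM, against 351.9 and 720.1 (2.02 ± 0.31). The keratin Krt20, at 952.7 and 2198 CPM against 653.8 and 985.8, did not pass. From the lower villus, Reg1, a secreted lectin-like protein, was at 9263 and 4624 CPM, against 2031 and 1695 (1.55 ± 0.33), and did not pass when barcodes with T cell gene UMIs were left out (0.52, edgeR adjusted p = 0.17). Its relative Reg3b (1.11 ± 0.30) was likewise at 0.22 (edgeR adjusted p = 0.55) without those barcodes, and the count of higher lower-villus landmarks was then 2.

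The libraries differed in which landmarks dominated. Upper-villus genes gave 21.7% of landmark UMIs in the 5% to 25% class of control 1, against 19.3% in its under 1% class. In control 2 they gave 51.5%, against 23.005%. The median barcode with at least 10 landmark UMIs had 20.0% and 61.2% in the 5% to 25% class, against 15.4% and 21.4%. In the quartiles over barcodes the share ran from 7.71% to 49.2% in control 1 and from 17.5% to 92.9% in control 2. Barcodes of the class thus differed widely in this share in each library. No barcode was assigned to a villus end.

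Across the 4 mitochondrial bands the 5% to 25% class lay between its neighbours for some groups and not for others. Nuclear-retained RNAs held 350 and 512 CPM under 1%, 1146 and 1481 CPM at 1% to 5%, 5199 and 18810 CPM at 5% to 25%, and 28670 and 28300 CPM at 25% or more. Ribosomal protein genes held 74000 and 45680 CPM under 1%, 100700 and 48830 CPM at 1% to 5%, 61250 and 21270 CPM at 5% to 25%, and 12810 and 6611 CPM at 25% or more. In these sums the nuclear-retained RNAs were higher with each band in both libraries, and ribosomal protein genes were highest at 1% to 5%. Per barcode, the median ribosomal share was 4.50% and 3.42% under 1% and 4.04% and 3.64% at 1% to 5%, so that order was seen in control 2 alone. Upper-villus landmarks held 1745 and 2760, 2696 and 2498, 4984 and 15120, and 18760 and 13960 CPM over the same bands, an order that was not the same in the libraries. The share of UMIs from barcodes with over 50000 UMIs was not even, since 7 barcodes held 52.0% of the UMIs of the 1% to 5% band of control 1.

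**Figure D4:**
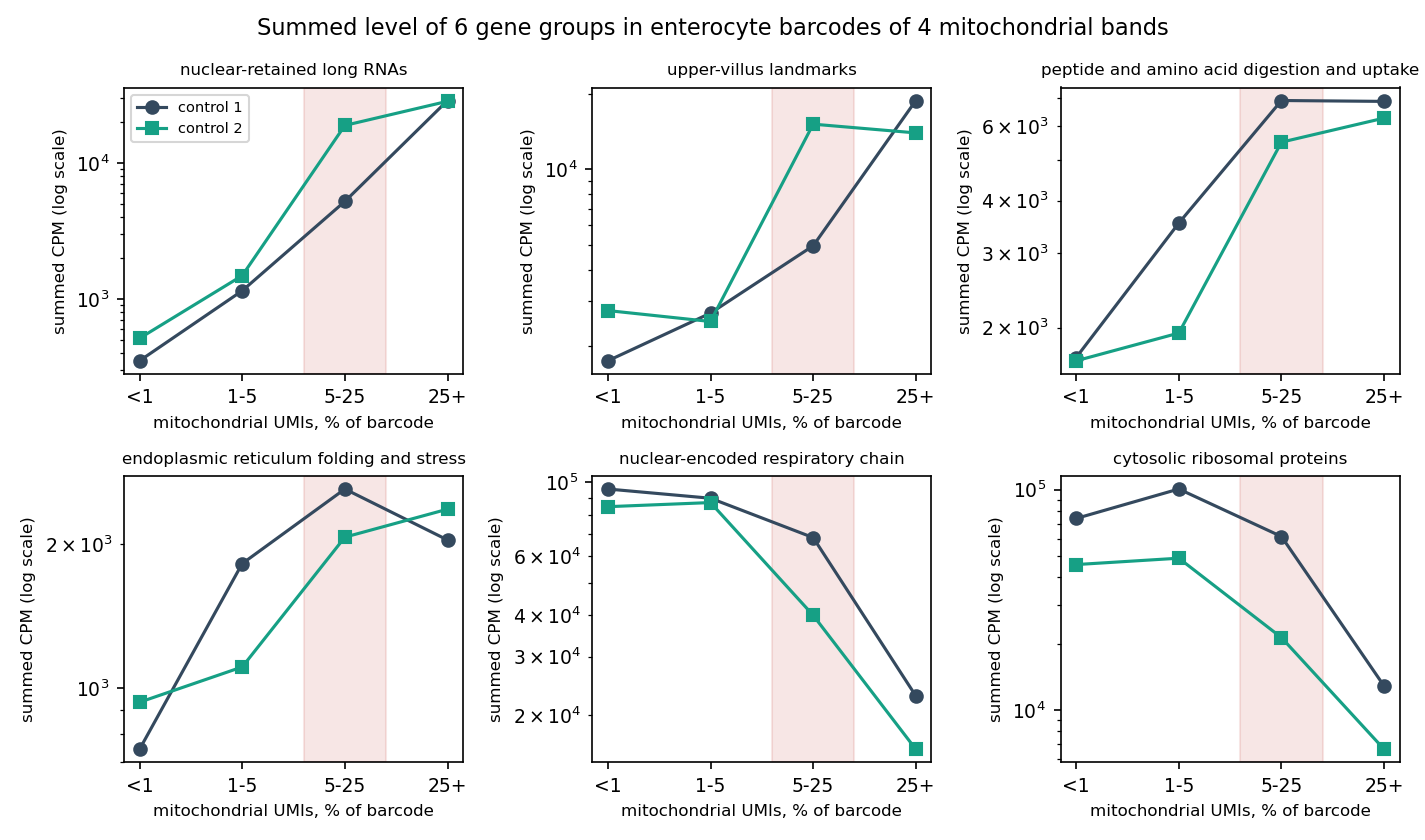
Summed level in CPM of non-mitochondrial UMIs (y, log scale) of 6 gene groups in gated enterocyte barcodes of 4 mitochondrial bands (x, percent of UMIs), with circles for control 1 and squares for control 2 and the 5% to 25% band shaded. Nuclear-retained RNAs reach 28670 and 28300 CPM in the highest band, and ribosomal protein genes drop to 12810 and 6611 CPM there.

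Against the neighbouring 1% to 5% band, of 255 and 143 barcodes, fewer genes passed. Of 8791 genes tested, 622 (7.08%) were higher and 86 (0.978%) lower in the 5% to 25% class, 8.05% in all. The comparison uses the same sums of the 5% to 25% class as the one above, so it is not independent of it. Malat1 was higher by 2.86 and Neat1 by 2.42 on the log2 scale (edgeR adjusted p = 0.00015 and 0.00074), and 5 of 10 upper-villus landmarks were higher, with Nt5e at 4.03 (edgeR adjusted p = 6.6e-09). Apob (2.31), Lct (2.07) and Heph (2.11) passed as well, while Mttp (1.41, edgeR adjusted p = 0.057) and Slc5a1 (1.25, edgeR adjusted p = 0.095) did not. None of the 79 nuclear respiratory chain genes and none of the 80 ribosomal protein genes passed in either direction, with medians of -0.92 and -1.08. That they did not pass does not show them to be alike in both bands, and the 1% to 5% sums hold only 1449393 and 362640 non-mitochondrial UMIs. These counts varied with the fit, from 4 higher and 6 lower without library as a block and 109 and 7 with DESeq2 to 1332 higher and 797 lower without barcodes that held a T cell gene UMI.

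Within the 5% to 25% class the profile was not uniform. By mitochondrial share, nuclear-retained RNAs of control 1 held 2944 CPM at 5% to 10%, 5409 at 10% to 15% and 10820 at 15% to 25%. In control 2 they held 17280, 18330 and 20470 CPM. Ribosomal protein genes ran the other way, with 94190, 32150 and 13640 CPM in control 1 and 38550, 18260 and 10010 CPM in control 2. The step over mitochondrial share was steeper in control 1 for nuclear-retained RNAs. Over single barcodes, Spearman's rho between mitochondrial share and the Malat1 share of non-mitochondrial UMIs was 0.50 (171 barcodes) and 0.49 (153 barcodes), a description of barcodes that share their library and differ in depth.

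Depth separated the class further. Barcodes under 5000 UMIs had nuclear-retained RNAs at 1800 and 2636 CPM, those of 5000 to 20000 UMIs at 15430 and 32720 CPM, and those of 20000 or more at 4725 and 16550 CPM. Pde4d was at 55.66 and 29.07 CPM, 554.4 and 1683 CPM, and 345.1 and 852.7 CPM in the same depth bins. In both, the middle bin was highest in each library. The shallow barcodes also had the most T or NK cell marker RNA of the 3 bins, 1150 and 979 CPM, with 302 and 403 CPM in the middle bin and 195 and 232 CPM in the deep one. In the upper-villus landmarks the middle bin again led, with 17250 and 24020 CPM, and the deep bin had 4347 and 13690 CPM. The uptake groups were not evenly spread over depth either. Peptide and amino acid genes summed to 2301 and 2113 CPM under 5000 UMIs, 7106 and 4764 CPM in the middle bin and 6948 and 5852 CPM in the deep one, against 1698 and 1668 CPM in the under 1% class. In the shallow bin the sugar genes were at 8497 and 7908 CPM, against 8465 and 8782 CPM in the under 1% class, and the xenobiotic genes at 8831 and 6774 CPM, against 10130 and 6563 CPM. In neither the sugar nor the xenobiotic group was the shallow bin above the under 1% class in both libraries. Median mitochondrial shares of the 3 bins, low to high depth, were 9.99%, 13.8% and 10.9% in control 1 and 7.65%, 16.4% and 13.8% in control 2.

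**Figure D5:**
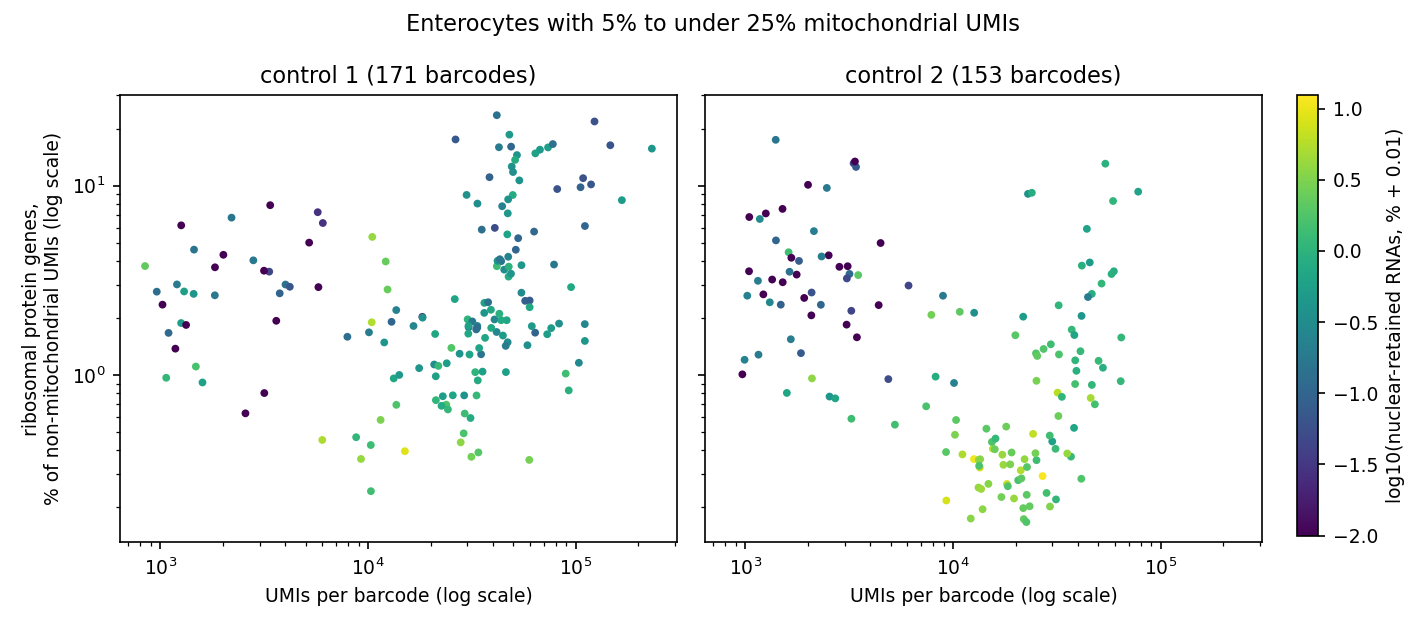
Ribosomal protein genes as a percent of non-mitochondrial UMIs (y, log scale) against UMIs per barcode (x, log scale) for each barcode of the 5% to 25% class, 171 in control 1 and 153 in control 2. Colour gives the percent of nuclear-retained RNAs as log10 of the percent plus 0.01, and many barcodes of 5000 to 20000 UMIs in control 2 combine a low ribosomal and a high nuclear-retained share.

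Both libraries were labelled as controls, of the M1 and the M3 model, but their 5% to 25% classes were not alike, as shown here with no test. Of 5831 genes with at least 100 UMIs in either library's class, 65 were more than 4-fold higher in control 2 and 52 more than 4-fold higher in control 1. Clca4a was at 3360 CPM (exact Poisson 95% interval 3288 to 3433, counting error only) in control 2 and at 406.9 CPM (390 to 424) in control 1, and it was at 65.54 and 37.48 CPM in the under 1% classes of control 2 and control 1. In the other direction, Car4, a membrane carbonic anhydrase, was at 5.64 CPM in control 2 and 126.6 CPM in control 1, and Dbp, a clock output factor, was at 1.21 and 24.02 CPM. Some of these differences were present in the under 1% classes too, such as that of Dbp, at 3.999 CPM in control 2 and 43.07 CPM in control 1. Il31ra, a cytokine receptor chain, had 195.7 CPM in control 2 and 3.885 CPM in control 1 in the 5% to 25% class, and 125.7 and 1.271 CPM in the under 1% class. Grik3, a glutamate receptor subunit, had 0 UMIs in control 2 (exact Poisson 95% interval 0 to 1.49 CPM) and 221 UMIs, 39.03 CPM, in control 1. In the under 1% class Grik3 was at 0.4443 CPM in control 2 and 70.39 CPM in control 1.

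Markers of other cells were measured beside these results, and their part in them was not tested. Of 12 T or NK cell markers, 11 were lower in the 5% to 25% class and none higher (209 and 293 CPM summed, against 513 and 619 in the under 1% class). The rule allowed no Ptprc UMI at any depth, so it was stricter for deep barcodes. At 5% to 25% mitochondrial UMIs this step took 242 and 207 barcodes to 178 and 160. Lower leukocyte marker sums, also those of B or plasma and myeloid cells below, are thus not independent of the rule. Barcodes of the 5% to 25% class under 5000 UMIs held 1150 and 979 CPM of them, above the under 1% class. In the under 1% class 81.1% and 83.3% of barcodes were that shallow, but its sums also hold the deeper ones. Depth was thus not matched, and whether the sums are lower at like depth was not tested. Ccl5 (-1.37 ± 0.26) and Gzma (-1.55 ± 0.26) were among the markers called lower. At least 1 UMI of a T cell gene was found in 50.3% and 44.4% of the barcodes of the 5% to 25% class, which were deeper, against 16.9% and 20.8%. Within the class, barcodes with such a UMI had a median of 47055.5 and 24676.5 UMIs and those without 14134 and 5244. Leaving out all barcodes with a T cell gene UMI in both classes gave 2778 higher and 2502 lower genes.

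Red cell genes were the most abundant foreign RNA, with all 5 lower in the 5% to 25% class (2147 and 4103 CPM summed, against 11700 and 8338). In control 1 a single barcode held 78.5% of the class's erythroid UMIs, and 2 and 6 barcodes had at least 1% of all their UMIs from red cell genes. In the under 1% class 52 and 10 barcodes did, up to 86.2% and 77.0% of a barcode, and single barcodes held 13.9% and 31.5% of the class's erythroid UMIs. What these barcodes add to the difference was not tested. B or plasma cell markers were lower for all 3 tested genes (13.2 and 22.2 CPM, against 21.0 and 137), with Igha at 9.359 and 15.3 CPM against 11.94 and 84.65, which did not pass without barcodes with T cell gene UMIs (edgeR adjusted p = 0.25). In control 2, 1 barcode held 68.3% of the B or plasma cell UMIs of the under 1% class. Myeloid markers were lower for all 3 tested (3.18 and 4.83 CPM, against 13.5 and 19.5). Goblet markers outside the rule were lower in 3 of 5 (94.3 and 224 CPM, against 235 and 386) and Paneth markers in 4 of 5 (305 and 327 CPM, against 458 and 540). In barcodes of the 5% to 25% class under 5000 UMIs, goblet markers (408 and 494 CPM) and Paneth markers (557 and 766 CPM) were instead above the under 1% class. The red cell, B or plasma cell and myeloid sums stayed below the under 1% class in those barcodes.

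Enteroendocrine markers were the exception, with 2 of 3 tested genes higher and 1 lower (9.18 and 86.2 CPM, against 21.3 and 17.8). The higher genes were Chga and Chgb, at 1.943 and 33.42 CPM against 3.049 and 3.333, and at 1.589 and 35.44 CPM against 4.066 and 1.777. A single barcode of control 2 held 83.2% of the enteroendocrine UMIs of its class, both genes were lower in control 1, and neither passed with DESeq2 (adjusted p = 0.29 and 0.32). Tuft markers had 1 of 3 lower, the tested stem marker did not pass, cycling markers had 3 of 4 lower (57.6 and 42.7 CPM, against 68.7 and 87.5), and no stromal marker was abundant enough to test. Within the 5% to 25% class Col1a1, Col3a1, Dcn, Sparc, Ascl2 and Gcg had 0 UMIs in both libraries.

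Antigen presentation and interferon genes, which immune cells also express, were not among the groups with a common direction. Class II genes had 2 of 7 higher and none lower (median 0.24), with H2-Ab1 at 463.6 and 445.8 CPM in the 5% to 25% class, against 177.9 and 195.7 in the under 1% class (1.01 ± 0.27), and Cd74, the invariant chain, at 1070 and 1300 CPM, against 445.2 and 704.3 (0.80 ± 0.29). Interferon response genes had 2 of 14 higher and 7 lower (median -0.54), with Isg15 at 94.3 and 54.36 CPM, against 143.2 and 145.3 (-1.27 ± 0.26). Transcription factors and nuclear receptors of enterocytes had 6 of 20 higher and 3 lower (median 0.26). Gata4, the proximal intestine factor, was at 163.9 and 254.1 CPM, against 48.28 and 57.54 (1.68 ± 0.26), and Creb3l3, which controls lipid genes, at 463.9 and 691.4 CPM, against 161.4 and 164.4 (1.53 ± 0.27). Hnf4g, at 372.8 and 394.2 CPM against 242.2 and 279.5, did not pass.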

How the data were processed

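UMI counts per gene and barcode, in whole numbers, were deposited for 2 control libraries of the proximal small intestine. Per the file headers Cell Ranger 7.1.0 wrote them. The submitters' processing notes name Cell Ranger (6.1, 7.1.0) and the genome builds mm10 and GRCm38. Barcode calling, annotation release and treatment of intron reads are not given in the sources used here. Control 1 holds 9342 barcodes and 54451793 UMIs, control 2 holds 7109 and 36139325, over 32285 genes each.

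The class, its gene lists and its tests were chosen with earlier results of these data known. Counts were summed per library and class, and edgeR 4.0.16 (R 4.3.3) ran its quasi-likelihood test with trimmed-mean (TMM) scaling, filterByExpr and library as a block, since both classes of a library share 1 suspension; 1 residual degree of freedom per gene remains. The 13 mitochondrial genes were left out of totals, and these and the 12 gate genes out of tests; p-values were adjusted by Benjamini-Hochberg over all tested genes. List counts cover members past the low-count filter. CPM divides by summed non-mitochondrial UMIs without TMM. SE is the fold change divided by the square root of its F value. It comes from the fit, which shares spread over genes, and is not the SE of the 2 library ratios. Each list's 4 members with the most UMIs in the class, its 2 called members with the largest fold changes, the 10 largest rises and falls at 100 CPM or more and the 10 largest differences between libraries in each direction could be named. Gate and mitochondrial genes, markers with 0 UMIs, and Cd3e were described apart from this rule; Cd3e was chosen after its values were seen. No doublet caller was run here: alternatives without barcodes over 50000 UMIs or with T cell gene UMIs stand in its place. The procedure was tested on simulated data. DESeq2 1.42.0 was an alternative. Fractions of sums cannot tell fewer UMIs of a gene from more of all others. Some genes that the rule names are not reported here. Intervals cover counting error only.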

Additional observations from a re-analysis of the deposited data

How the results depend on the processing

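Against the under 1% class, the counts of 3247 higher and 2697 lower genes went to 1964 and 508 without the replicate block, to 1536 and 1331 with barcodes thinned to 1000 UMIs, and to 1305 lower genes without TMM. The block pairs the classes of a library because they come from the same suspension. Against the 1% to 5% band, 622 higher and 86 lower genes went to 109 and 7 with DESeq2, 4 and 6 without the replicate block, 1288 and 483 without barcodes over 50000 UMIs, 1332 and 797 without barcodes with T cell gene UMIs, 326 and 37 for barcodes under 15% mitochondrial UMIs, and 195 and 13 with at least 1000 genes per barcode. The other counts stayed within 1.5 times, including those with at least 5000 UMIs per barcode (3001 and 2377), an alternative chosen after seeing the data. Among named genes, those that changed sign had not passed: Tug1 (-0.21, thinned), Pls1 (0.035) and Cs (0.24) without TMM, Cs at 0.038 without barcodes over 50000 UMIs, 0.040 without T cell gene barcodes and 0.034 with at least 5000 UMIs, and S100g (-0.018) without barcodes over 50000 UMIs. Chga and Chgb, which had passed, were at -0.73 and -1.24 without replicate 2, that is in control 1 alone, and at 2.83 and 3.56 without replicate 1, with no residual spread for a test. Other called genes that moved by over 1.5 times (values without replicate 1, then without replicate 2) were Hba-a1 (-1.18, -2.92), Hba-a2 (-1.24, -2.82), Hbb-bs (-1.26, -2.82), Igha (-2.56, -0.66), Iglc1 (-5.72, -0.40) and Slirp (-1.26, -0.62). Of the 98 genes named with a test, 33 lost their call without the replicate block (among them Reg1, Ada, Rbp2 and Txn1), 8 without TMM, and at most 4 under any other setting. Causes were not tested. The under 1% barcodes hold few UMIs each, which limits what is seen per barcode.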
